A study of Mus musculus with 12 samples.

Results

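Transcripts of 10 digestive enzyme and cofactor genes of the exocrine pancreas were followed in endothelial cells sorted from mouse mesentery and epididymal fat, on normal chow and on a high fat diet. The genes were taken by symbol, 10 of 27825 genes in the table, and fall into 3 families. The 5 genes of fat digestion are Pnlip, Pnliprp1, Pnliprp2, Clps and Cel. Amy2a5 encodes pancreatic amylase, which digests starch. The 4 proteases are Cpa1, Ctrb1, Cela2a and Prss2. They were chosen by their normalized counts, which were high in mesentery and near 0 in epididymal fat, so their tissue difference is given as a description, with no test.

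All mice were males of the genotype ROSA26-eYFP+/+ Cdh5-CreERT2+, in which the endothelial promoter Cdh5 drives a tamoxifen-dependent Cre that switches on a yellow fluorescent reporter. At 6 weeks of age they were put on a tamoxifen diet that lasted 2 weeks. Starting at 8 weeks they were kept for 12 to 13 weeks on normal chow, with 5.8% fat, or on a high fat diet (HFD), with 60% fat. Tissue of 6 mice was pooled in each sample, digested with actinomycin D present, and sorted for the reporter. Each of the 4 groups of tissue and diet holds 3 libraries, A, B and C. The protocol speaks of 2 independent replicates, so the libraries may share sources and the p-values measure only the spread between these samples.

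The exocrine pancreas consists mainly of acinar cells, which make digestive enzymes in very large amounts and release them into the gut. Pancreatic lipase cleaves triglycerides with the help of its cofactor colipase, amylase cleaves starch, and the proteases are stored as inactive precursors. In rodents the pancreas is known to adjust its enzyme mix to the diet, with more lipase on fat-rich food and more amylase on starch-rich food. The mouse pancreas is a diffuse organ that lies within the mesentery next to the gut.

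Acinar genes share promoter elements that bind PTF1, a complex of PTF1A with an E-box partner and RBPJL, whose site joins an E-box to a TC box. Promoters of 4 members are shown because the results below turn on them: Cel and Amy2a5 lay at opposite ends of the diet ratios, Pnlip is the main lipase and Prss2 a main protease. Each runs 5′ to 3′ from 250 bases before to 50 after the RefSeq start, in build GRCm38.p6, whereas the count data were made on mm39, per the submitters' processing notes. Capitals mark every match, on either strand, to an E-box CACCTG, a TC box TTTCCC or a TATA box TATAAA. Cel lies on the minus strand (chr2:28563354-28563653), Amy2a5 on the minus strand (chr3:113258650-113258949), Pnlip on the plus strand (chr19:58670115-58670414) and Prss2 on the plus strand (chr6:41521526-41521825).
Cel: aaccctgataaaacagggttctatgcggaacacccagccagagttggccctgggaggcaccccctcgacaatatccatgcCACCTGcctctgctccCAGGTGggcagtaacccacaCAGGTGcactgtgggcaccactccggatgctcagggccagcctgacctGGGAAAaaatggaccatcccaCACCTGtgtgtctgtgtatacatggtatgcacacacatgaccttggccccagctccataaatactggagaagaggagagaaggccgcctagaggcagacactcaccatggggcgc
Amy2a5: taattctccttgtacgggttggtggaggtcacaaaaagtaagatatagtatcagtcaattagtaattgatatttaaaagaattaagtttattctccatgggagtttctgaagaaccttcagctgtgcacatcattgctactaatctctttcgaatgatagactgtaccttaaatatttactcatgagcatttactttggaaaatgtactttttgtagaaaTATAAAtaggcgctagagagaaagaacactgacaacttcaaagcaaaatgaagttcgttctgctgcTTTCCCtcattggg
Pnlip: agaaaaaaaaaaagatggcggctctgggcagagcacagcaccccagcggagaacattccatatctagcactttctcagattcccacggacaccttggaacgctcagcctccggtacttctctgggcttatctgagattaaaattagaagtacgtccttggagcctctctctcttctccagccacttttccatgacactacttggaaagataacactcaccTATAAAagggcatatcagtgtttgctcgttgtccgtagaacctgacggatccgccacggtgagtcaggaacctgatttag
Prss2: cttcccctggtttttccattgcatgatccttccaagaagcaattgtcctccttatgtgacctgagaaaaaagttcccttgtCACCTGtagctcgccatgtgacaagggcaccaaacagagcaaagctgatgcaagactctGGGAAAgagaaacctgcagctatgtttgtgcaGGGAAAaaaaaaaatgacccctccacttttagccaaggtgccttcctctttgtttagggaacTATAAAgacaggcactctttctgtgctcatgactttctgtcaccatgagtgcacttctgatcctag

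Promoters were matched for 9 of the 10 members. CACCTG occurred in 4 of these 9 windows and in 20.2% of all 32851 windows of 300 bases in the RefSeq table. TTTCCC occurred in 6 of 9, against 25.2% of all windows, and TATAAA in 3 of 9, against 13.6%. Cel, Cela2a and Prss2 held both CACCTG and TTTCCC, a combination found in 4.86% of all windows. The Cel window held 4 matches to CACCTG, while those of Amy2a5 and Pnlip held none and each had a TATAAA 30 bases before the start. The matches are a description of letters and not a measurement of binding.

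Library totals, summed over listed genes, were lowest in mesentery chow C, at 8348897 reads, and highest in epididymal HFD C, at 25397963. Endothelial genes were abundant in mesentery, as the label states: Emcn, an endothelial sialomucin, lay between 24087 and 38353 normalized counts and Kdr, a VEGF receptor, between 11410 and 25939. The 10 members took 0.391% to 1.57% of reads on chow and 0.533% to 1.11% on HFD, so the diets overlapped. Replicate C on chow was lowest in members and in total reads, and had the highest share of reads on 663 olfactory and vomeronasal receptor genes, a measure of background, with 3065 CPM against 253 to 1918 CPM in the other mesentery libraries. Whether that background bears on the members was not tested.

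Levels were described by family, as counts divided by the authors' size factor for each library. Among the genes of fat digestion, Clps, the colipase gene, had the highest normalized counts. On chow it had 79298, 66379 and 9315 normalized counts in replicates A, B and C, and on HFD 43538, 41148 and 21964. The chow libraries spanned the HFD libraries on both sides. Clps also led per length, with 84556 ± 60949 normalized counts per kilobase on chow and 58183 ± 19356 on HFD (SD, n = 3), by the length of the principal transcript in GENCODE M21.

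Pnlip, the main pancreatic triglyceride lipase, had 10032, 7106 and 1832 normalized counts on chow and 5923, 4481 and 3740 on HFD. Pnliprp1, a lipase-like protein with little known activity, had 2741, 2160 and 852 on chow and 2404, 2535 and 1095 on HFD. Pnliprp2, a relative that also cleaves galactolipids and phospholipids, was the lowest member, also per length, with 542, 322 and 149 on chow and 302, 383 and 174 on HFD. For each of these genes chow A was the highest library and chow C the lowest. Cel, the bile salt-dependent lipase that cleaves cholesterol esters and other lipid esters, had 5549, 4056 and 932 on chow and 6056, 4593 and 1989 on HFD. Only for Cel was a HFD library, replicate A, the highest of the 6.

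Amy2a5 had 130660, 93793 and 22175 normalized counts on chow and 47707, 52140 and 24738 on HFD. Chow A and B lay above each HFD library, whereas chow C lay below all of them. The Amy2a5 count stands for several copies: Amy2a2, Amy2a3, Amy2a4 and Amy2a5 differed by at most 0.119% of their mean in a mesentery library, and their GENCODE M21 transcripts are 98.4% identical to that of Amy2a5. Reads of these 4 copies can therefore not be assigned to 1 gene.

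The proteases followed the same order of libraries on chow. Prss2, a trypsinogen, had 27671, 21899 and 4997 normalized counts on chow and 20145, 13883 and 9262 on HFD. Cela2a, a pancreatic elastase, had 24810, 23802 and 3397 on chow and 15096, 14848 and 7581 on HFD. Ctrb1, a chymotrypsinogen, had 9259, 6211 and 1687 on chow and 4780, 3217 and 3557 on HFD. Cpa1, which encodes carboxypeptidase A1 and cuts at the carboxyl end of proteins, had 5297, 5123 and 589 on chow and 3376, 3931 and 2045 on HFD. Prss2 belongs to a family of similar trypsinogen genes, so its reads may be shared with relatives. Each protease was lowest in chow C and highest in chow A.

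**Figure D1:**
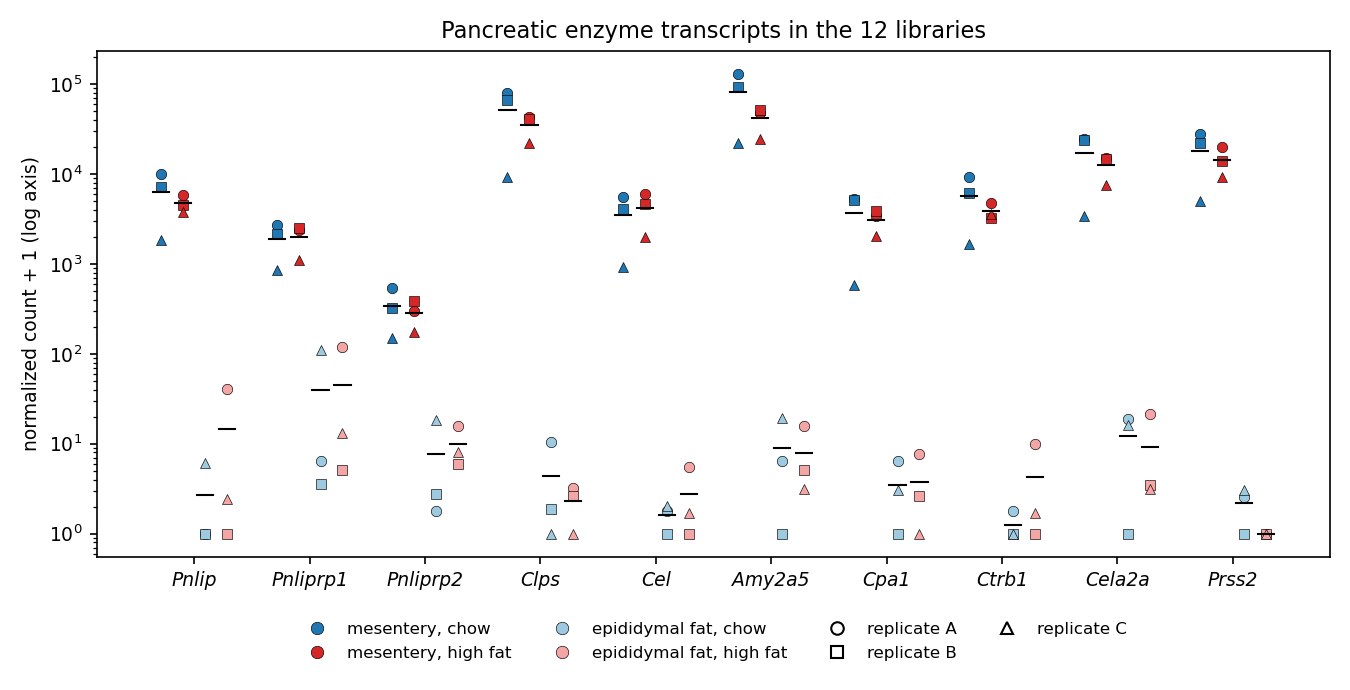
Normalized count plus 1 of the 10 genes in each library, on a log axis, with colours for tissue and diet, symbols for the replicate and a bar for the mean of 3 libraries. In mesentery the chow and HFD libraries overlap for each gene, with chow C lowest, and in epididymal fat no value exceeds 117.

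In epididymal fat the members were near or at the counting floor. Of the 60 values, 18 were 0 and 37 were at 3 reads or fewer. The highest was Pnliprp1, with 5.48, 2.61 and 109 normalized counts on chow and 117, 4.13 and 12.0 on HFD. Pnlip reached 39.3 in HFD replicate A and was 0 in chow A and B. The libraries with the high Pnliprp1 values, chow C and HFD A, carry the numbers 87 and 88, and had 1941 and 2082 CPM on olfactory and vomeronasal receptor genes, against 99.7 to 186 CPM in the other epididymal libraries. The part of that background in these values was not tested. In mesentery the lowest member value rested on 106 reads, Pnliprp2 in chow C.

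Whether the diet changed the level of each gene in mesentery was tested with limma on log2(normalized count + 1), fitted over all 22238 genes whose mean was 10 or more. None of the 10 members passed an adjusted p of 0.05 (Benjamini-Hochberg), where 0.0135% of all genes did, and none had an unadjusted p under 0.05. The libraries of the diet groups overlapped for all 10 members, while 9.61% of all genes had groups that did not overlap (5.14% with HFD lower). Amy2a5 had the most negative estimate, a log2 change of -0.71 (SE 0.93, limma adjusted p 0.965), and Cel the most positive, 0.47 (SE 0.74, limma adjusted p 0.972). The median over the members was -0.09, beside 0.00 over all genes tested. That median moved to -0.85 without chow C, where all 10 estimates were negative, to 0.40 without chow A, where 9 were positive, to 0.26 without chow B, where 7 were positive, and to 0.21 without HFD C, where 8 were positive, so the direction of the absolute change rests on single libraries of either diet. In bulk samples, fewer pancreatic cells and less RNA per cell cannot be told apart.

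The lack of a call left a wide margin: the SE of the members' log2 changes ranged from 0.58 for Prss2 to 1.19 for Pnliprp1. That fit shares the spread of a gene over both tissues, so the low epididymal counts enter these SEs. On the 6 mesentery libraries alone the SE ranged from 0.44 for Pnliprp1 to 0.71 for Clps, and no member passed. In epididymal fat none of the 10 members passed by diet (background 0.549% of genes), and none passed the test of the difference between tissues (background 0.0045%). Libraries of both tissues carry the same 6 numbers, which that fit treats as independent, and none passed within numbers either. For most of the members these fits compare values of a few reads.

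The members rose and fell together from library to library, and their ratios within a library varied less than their levels. The SD of the log2 level over the 6 mesentery libraries was 0.70 to 1.20, depending on the gene, whereas the SD of the log2 ratio of 2 members had a median of 0.44 over the 45 pairs. Pearson's r between members over these 6 libraries had a median of 0.924 and ranged from 0.769 to 0.998. These libraries share 2 diets and differ in their total share of pancreatic transcripts, so the correlations are a description. Ratios do not depend on library scaling, and were therefore used to compare the families.

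Relative to Amy2a5, 4 of the 5 genes of fat digestion had HFD libraries that all lay above the chow libraries. Against that denominator the median gene was also higher on HFD: the median log2 difference was 0.68 over all genes and 0.63 over the other 9 members. Folds of these ratios are taken from the difference of mean log2 ratios. Cel had 4.25, 4.32 and 4.20 normalized counts per 100 of Amy2a5 in chow A, B and C, and 12.7, 8.81 and 8.04 in HFD A, B and C. The chow libraries were nearly equal, and each HFD library lay well above them. The ratio was 2.27-fold higher on HFD, a log2 difference of 1.18, and the arithmetic means were 4.26 ± 0.062 and 9.85 ± 2.49 per 100 (SD, n = 3; two-sided exact permutation p 0.1, the smallest that 3 against 3 libraries can give).

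Pnlip had 7.68, 7.58 and 8.26 per 100 of Amy2a5 on chow and 12.4, 8.59 and 15.1 on HFD. The groups did not overlap, though HFD B lay close to chow C, and the ratio was 1.50-fold higher (exact permutation p 0.1). Clps had 60.7, 70.8 and 42.0 per 100 on chow and 91.3, 78.9 and 88.8 on HFD, 1.52-fold higher with no overlap (exact permutation p 0.1). Pnliprp1 had 2.10, 2.30 and 3.84 on chow and 5.04, 4.86 and 4.43 on HFD, 1.80-fold higher with no overlap (exact permutation p 0.1). Pnliprp2 was the exception in the family: it had 0.415, 0.343 and 0.673 on chow and 0.633, 0.734 and 0.703 on HFD, and chow C overlapped the HFD libraries (1.51-fold, exact permutation p 0.2).

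Of the 4 proteases, 3 had HFD libraries that all lay above the chow libraries relative to Amy2a5, with log2 differences of 0.97 for Cpa1, 0.64 for Prss2 and 0.63 for Cela2a beside the all-gene median of 0.68. Cpa1 had 4.05, 5.46 and 2.65 per 100 of Amy2a5 on chow and 7.08, 7.54 and 8.27 on HFD, 1.96-fold higher with no overlap (exact permutation p 0.1). Prss2 went from 22.4 ± 1.10 to 35.4 ± 7.99 per 100 and Cela2a from 19.9 ± 5.09 to 30.3 ± 1.62 (SD, n = 3), both with no overlap and both at the smallest exact permutation p of 0.1. Ctrb1 had 7.09, 6.62 and 7.61 on chow and 10.0, 6.17 and 14.4 on HFD, so that HFD B lay below the chow libraries (1.36-fold, exact permutation p 0.4). In all, 7 of the 9 ratios to Amy2a5 had groups that did not overlap, each higher on HFD. Among all genes tested, 4.74% had such a higher ratio to Amy2a5 and 0.126% a lower one. Among the other acinar genes outside the Amy2 family 32.0% had a higher one, 8 of 25. The members' ratios share this denominator and the same libraries, so the 7 are not independent of each other.

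**Figure D2:**
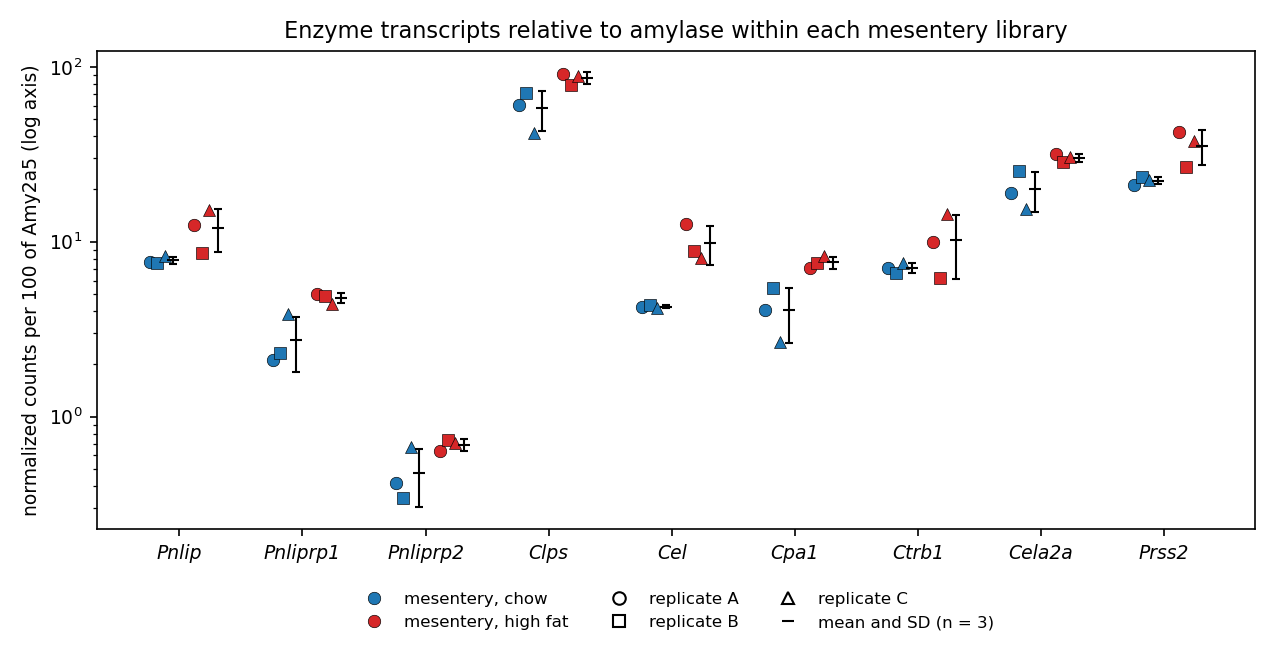
Normalized counts of 9 genes per 100 of Amy2a5 in the 6 mesentery libraries, on a log axis, with symbols for the replicate and bars for the mean and SD of 3 libraries. Points of the diets are apart for 7 genes and overlap for Pnliprp2 and Ctrb1; for Cel the chow points sit between 4.20 and 4.32 and the HFD points between 8.04 and 12.7.

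When all genes were divided by Amy2a5 and tested with limma over the mesentery libraries, an alternative chosen after seeing the data, no member passed (Cel log2 change 1.18, SE 0.82, limma adjusted p 0.977). Both ranges of library numbers showed the Cel difference: it was 1.96-fold in the libraries numbered 50 to 53, with 2 libraries a diet, and 3.02-fold between the libraries numbered 88 and 87. Pnlip was 1.49-fold and 1.50-fold higher in these ranges, and Cpa1 1.68-fold and 2.67-fold. Pnliprp2 was 1.90-fold higher in the former and had a ratio of 0.941 in the latter.

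Summed by family, genes of fat digestion and proteases were both higher against Amy2a5 in each HFD library than in each chow library. The HFD means were 1.55 and 1.56 times the chow means. Against that denominator the median gene was higher too, with a median log2 difference of 0.68 over all genes. The 5 genes of fat digestion together came to 0.751, 0.853 and 0.590 times Amy2a5 on chow and 1.22, 1.02 and 1.17 times on HFD. The 4 proteases came to 0.513, 0.608 and 0.481 times Amy2a5 on chow and 0.910, 0.688 and 0.907 times on HFD. The ratio of the genes of fat digestion to the proteases was 1.46, 1.40 and 1.23 on chow and 1.34, 1.48 and 1.29 on HFD, and the groups overlapped, with means of 1.36 ± 0.12 and 1.37 ± 0.10 (SD, n = 3). Amy2a5 made up 44.4% ± 3.83 of the members' normalized counts on chow and 33.8% ± 2.74 on HFD, and the genes of fat digestion 32.1% ± 3.23 and 38.2% ± 0.69. These shares depend on transcript length. Per length Amy2a5 made up 14.6% ± 2.26 of the members on chow and 9.95% ± 1.08 on HFD, and Clps 49.9% ± 5.68 and 51.9% ± 1.52. Clps made up most of the sum for fat digestion, and these shares were not tested.

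**Figure D3:**
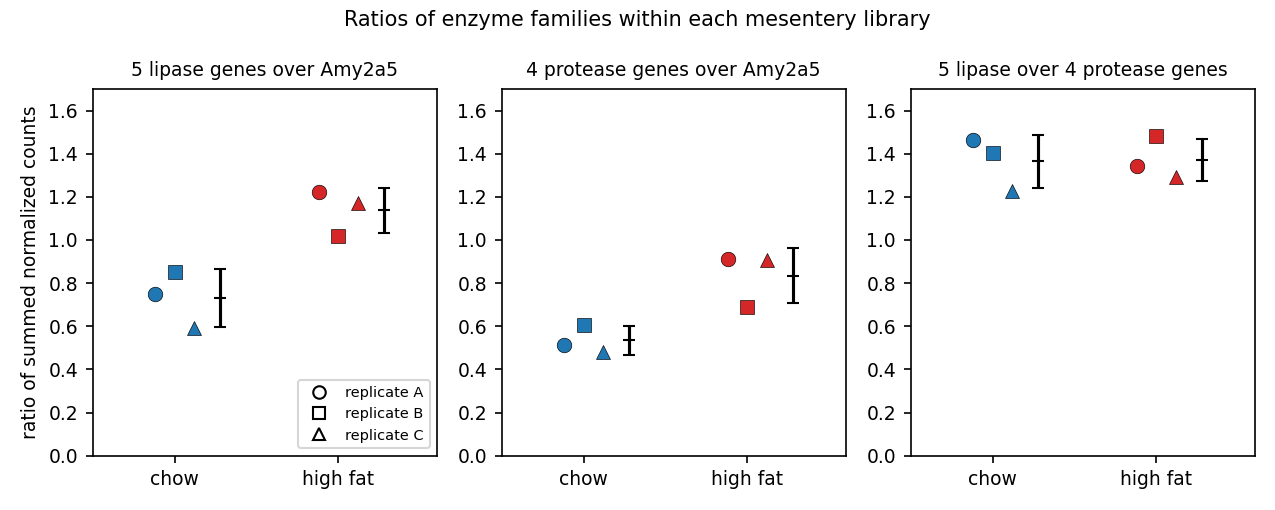
Ratios of summed normalized counts within each mesentery library for lipase genes over Amy2a5, protease genes over Amy2a5 and lipase over protease genes, with the mean and SD of 3 libraries per diet. Here lipase genes are the 5 genes of fat digestion, and Clps, the colipase gene, made up most of their sum. Both ratios to Amy2a5 are higher in each HFD library than in each chow library. The median of all genes over Amy2a5 was also higher on HFD (log2 difference 0.68). The lipase to protease ratio overlaps, with means of 1.36 and 1.37.

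Ratios to Cpa1 served as a protease reference. Amy2a5 was lower relative to Cpa1 on HFD, with 2467, 1831 and 3768 per 100 of Cpa1 on chow and 1413, 1327 and 1210 on HFD (0.511-fold, exact permutation p 0.1). Clps and Cela2a were also lower relative to Cpa1 with no overlap (0.779-fold and 0.793-fold, each with exact permutation p 0.1). The other 6 ratios overlapped, among them those of Cel (1.16-fold, exact permutation p 0.6) and Pnlip (0.765-fold, exact permutation p 0.4). Of all genes tested, 0.715% were lower relative to Cpa1 with no overlap and 1.33% higher. With the summed proteases in place of Cpa1, Clps (log2 difference -0.03) and Cela2a (-0.01) overlapped between diets, though Cela2a is part of that sum, which draws its difference towards 0. On the same sum Cel lay above chow in each HFD library, with a log2 difference of 0.54. It had 8.28, 7.11 and 8.74 per 100 of that sum on chow and 14.0, 12.8 and 8.86 on HFD. The groups nearly touched, as HFD C lay close to chow C. Amy2a5 was lower with no overlap (0.642-fold). The share of all genes apart on this sum was not computed.

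Over all 45 pairs of members, 10 had a ratio that did not overlap between diets, and 7 of these involved Amy2a5. The others were Cel over Prss2, Cpa1 over Clps and Cpa1 over Cela2a. Of the 28 pairs with neither Amy2a5 nor Cel, 2 were apart. Among pairs of the other acinar genes outside the Amy2 family, 7.25% did not overlap, 20 of 276. That share compares only with member pairs that leave out Amy2a5. Relative to Cel, 2 of the 9 other members were apart, Amy2a5 and Prss2, both lower on HFD, where 1.14% of all genes were lower and 0.863% higher.

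**Figure D4:**
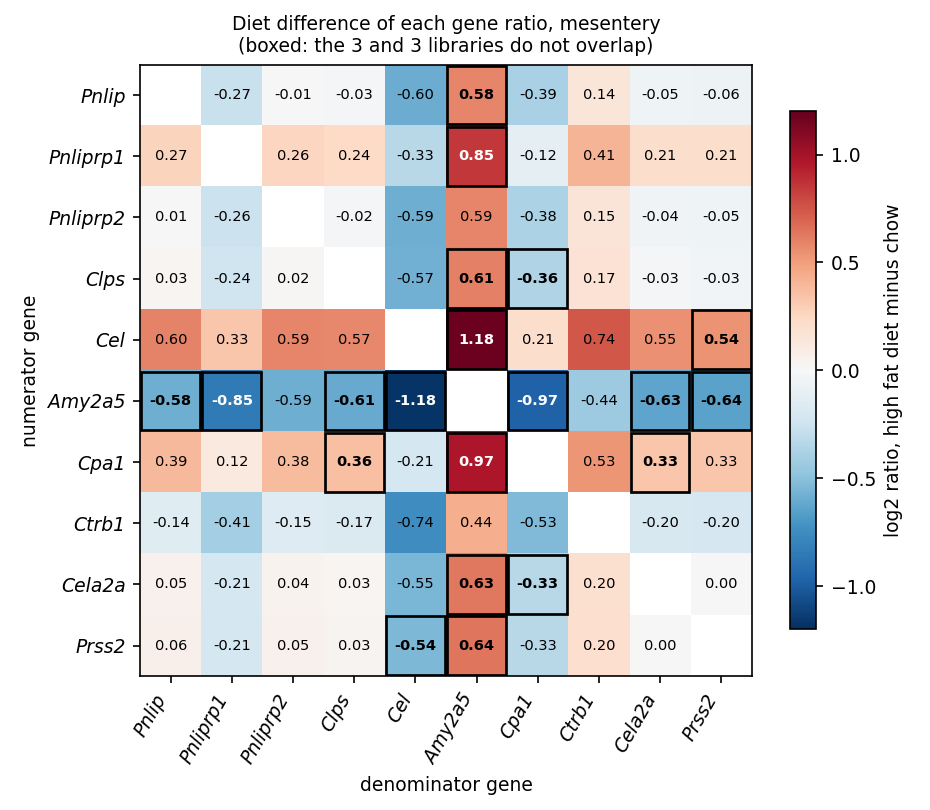
Difference in log2 ratio between diets, high fat minus chow, for each pair of the 10 genes in mesentery, with the numerator gene in rows and the denominator gene in columns. Boxes mark the 10 pairs, each shown in both orders, whose 3 chow and 3 HFD libraries do not overlap; the largest difference is 1.18 for Cel over Amy2a5.

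The members were also set against the sum of the other acinar genes, a list of 31 genes of pancreatic enzymes and secreted proteins with the members left out. That sum includes Amy2a2, Amy2a3 and Amy2a4, which largely repeat the Amy2a5 reads, so it is mostly an amylase reference. Against it Cel, Clps, Cpa1, Cela2a and Prss2 were higher with no overlap (2.05, 1.38, 1.77, 1.40 and 1.41-fold), where 3.93% of all genes and 24.0% of the other acinar genes outside the Amy2 family were, and Amy2a5 was lower (0.902-fold), where 0.18% of all genes were. Without the Amy2 genes, an alternative chosen after seeing the data, 2 members had groups apart. Cel was higher, with 3.47, 3.29 and 3.73 per 100 of that sum on chow and 7.08, 6.28 and 4.20 on HFD (1.64-fold, background 2.64% of genes). Amy2a5 was lower, with 81.8, 76.1 and 88.7 on chow and 55.8, 71.3 and 52.3 on HFD (0.722-fold, background 0.315%). Pnlip, Clps, Cela2a and Prss2 overlapped between diets on this reference, at 1.08, 1.10, 1.12 and 1.12-fold.

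In the other acinar list, none of the 30 genes tested passed by diet in mesentery, and 27 estimates were negative and 3 positive. The median log2 change was -0.42, beside -0.002 over all genes tested. Amy2a2, Amy2a3 and Amy2a4 enter this count with largely the same reads. Leaving out 1 mesentery library gave medians from -1.16 without chow C to 0.06 without chow A, so the direction depended on single libraries. Its genes with the highest normalized counts outside the Amy2 family were Rnase1, a secreted ribonuclease, and Try4, a trypsinogen. Rnase1 had 51669, 40852 and 5487 normalized counts on chow and 25235, 25164 and 10702 on HFD, and Try4 had 18930, 12684 and 2709 and then 7706, 7853 and 5809. Both followed the order of the members on chow. Relative to Amy2a5, Try4 was higher on HFD with no overlap and Rnase1 higher with overlap, at 1.36 and 1.34 times as ratios of arithmetic means.

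Amy2a1, a further amylase gene, moved with Amy2a5: it had 21.2 per 100 of Amy2a5 on chow and 21.6 on HFD as means, a ratio of 1.02 with overlap. Its transcript was not compared with that of Amy2a5, and whether the genes share reads was not tested.

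Islet transcripts were far below those of the enzymes. Ins2, an insulin gene, had 857, 789 and 59.1 normalized counts on chow and 542, 588 and 302 on HFD, lowest in chow C as the enzymes were. Ins1 was also lowest in chow C, at 15.5. Iapp was not, with 64.9, 43.0 and 57.7 on chow and 29.9, 47.1 and 62.2 on HFD. None of the 5 islet genes tested passed by diet, nor any of 7 duct genes, 10 genes of acinar transcription and secretion or 5 of gut epithelium. Rbpjl, the acinar partner in PTF1, was chosen after its values were seen and had 0 normalized counts in chow C and 15.2 to 128 in the other mesentery libraries. The 9 genes for lipases of vessels and fat tissue, which act on circulating or stored fat, and for the anchor protein Gpihbp1 gave no call either (median log2 change 0.29). Among them Gpihbp1, the endothelial anchor of lipoprotein lipase, had 22988 to 40171 normalized counts in mesentery and Mgll, which cleaves monoglycerides, 13499 to 32084.

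Markers of other cells in the sort were given by list. The summed macrophage markers were 1395, 1551 and 6833 normalized counts on chow and 15072, 3958 and 22362 on HFD, with 8 of 8 estimates positive and none passing. Of 8 adipocyte genes 1 passed, Lep (limma log2 change 3.71, adjusted p 0.0210), with 49.0, 23.3 and 40.8 normalized counts on chow and 974, 256 and 456 on HFD. The adipocyte list did not move as a whole: 6 estimates were positive and 2 negative. Cfd was among the latter (limma log2 change -1.32, adjusted p 0.657). Of 5 mesothelial genes all estimates were positive and none passed, and of 6 fibroblast genes 5 were negative and none passed. The summed endothelial markers were 83798 to 112384 on chow and 78926 to 87944 on HFD, with 8 of 9 estimates negative and none passing. Cldn5 was the positive one and had the largest change of the list (limma log2 change 1.80, adjusted p 0.450). The most negative estimate was -0.60. The part of these cells in the enzyme levels was not tested.

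Genes outside the acinar lists with a pattern most like Pnlip over the 6 mesentery libraries were 4833420G17Rik (r 0.998), Wdcp (0.995), Rnaseh2c (0.993), Gstm7 (0.991) and Samd12 (0.991), among 10207 genes whose mean there reached 100. Those most like Amy2a5 were Ipo13 (r 0.998), Gata2 (0.994), Chfr (0.991), Arhgdig (0.989) and Acap3 (0.988). Arhgdig lay between 67.6 and 512 normalized counts in mesentery and at most 8.49 in epididymal fat, while the other 9 were present in both tissues. With 6 points and this many genes, high correlations are a description only.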

How the data were processed

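The deposited table holds a signal per gene and library: counts that the authors divided by a size factor for each library. STAR 2.7.9a, featureCounts (Subread), DESeq2 1.34.0 and mm39 are named in the submitters' processing notes without roles. Counting settings and strand use are not given in the sources used here. All values (100%, tolerance 1e-06) were whole multiples of 1 step per library, so reads were recovered. The lowest gene total was 51 reads. A floor of 3 reads equals 2.12 to 4.22 normalized counts, and covers counting error only.

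Groups came from sample titles. limma 3.58.1 (R 4.3.3; lmFit, eBayes with trend) was run on log2(normalized count + 1) with 4 group means, for genes with a mean of at least 10, with Benjamini-Hochberg adjustment over all genes. On simulated data of 22201 genes it recovered 100 of 100 genes changed 4-fold and 58 of 100 changed 2-fold by diet in mesentery, and called 11 unchanged genes. The simulation gave all genes the same spread between replicates, which was not set to that of the members. The members varied more, so these recoveries do not apply to them. Ratios were computed on normalized counts without a pseudocount; exact permutation tests were two-sided and only single-gene ratios were tested. Alternatives were edgeR 4.0.16 and DESeq2 1.42.0 on recovered reads, other filters, pseudocounts, scalings, covariates and leaving out libraries.

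The members and lists were chosen with earlier results of these data known. All members are named, with the 6 most abundant other acinar genes, up to 3 of each other list and any list gene that passed; genes of the Amy2 family stand for 4 of those 6. Members' lists gave no adjusted p of their own. Promoters are from RefSeq (GRCm38.p6), lengths from GENCODE M21.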

Additional observations from a re-analysis of the deposited data

How the results depend on the processing

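No member passed by diet in any of the 21 alternatives (lowest adjusted p 0.352), nor in those run for epididymal fat and for the difference between tissues, edgeR and DESeq2 among them. Taking the number shared by both tissues as a replicate block, chosen after seeing the data, called no member for the difference between tissues with limma. All genes called in mesentery numbered 3, and 7 with a mean of at least 50, 1 on the mesentery libraries alone, 20 in libraries numbered 50 to 53, 1 with edgeR and 150 with DESeq2; leaving out 1 library gave 1 to 37, the latter without chow C. The letters did not pair the libraries (correlations of deviations -0.149, 0.119 and 0.0436 for A, B and C); with the letter as a replicate block 1 gene passed, and no member.

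Signs of uncalled log2 changes depended on scaling, which shifted the median of all genes too. With columns at the same total they were 0.0045 for Pnlip, 0.012 for Pnliprp2, 0.0306 for Clps, 0.0566 for Cela2a and 0.0614 for Prss2 (median of all genes 0.13); at the same total without acinar genes (0.11), 0.0165 for Clps, 0.0425 for Cela2a and 0.0473 for Prss2. At the same sum of other acinar genes (median of all genes 0.54) they were 0.43 for Pnlip, 0.44 for Pnliprp2, 0.46 for Clps, 0.29 for Ctrb1, 0.49 for Cela2a and 0.49 for Prss2; with that sum lacking Amy2 genes (0.22), 0.11 for Pnlip, 0.12 for Pnliprp2, 0.14 for Clps, 0.16 for Cela2a and 0.17 for Prss2. At the same Amy2a5 (0.68) they were 0.58 for Pnlip, 0.59 for Pnliprp2, 0.61 for Clps, 0.44 for Ctrb1, 0.63 for Cela2a and 0.64 for Prss2. In libraries numbered 50 to 53 Pnliprp1 was -0.55, Cel -0.65 and Cpa1 -0.88; Cpa1 was -0.24 with edgeR and -0.24 with DESeq2, and the cause was not tested. Leaving out 1 library gave -0.87 to 0.36 for Pnlip, -0.37 to 0.53 for Pnliprp1, -0.62 to 0.31 for Pnliprp2, -1.09 to 0.45 for Clps, -0.32 to 0.97 for Cel, -0.79 to 0.79 for Cpa1, -0.998 to 0.23 for Ctrb1, -1.03 to 0.41 for Cela2a and -0.84 to 0.39 for Prss2, while Amy2a5 stayed negative, from -1.49 to -0.21.

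With summed proteases in place of Cpa1, the log2 differences of Clps and Cela2a moved to -0.0314 and -0.00548. With the other acinar sum lacking Amy2 genes they were 0.11 for Pnlip, 0.14 for Clps, 0.71 for Cel, -0.47 for Amy2a5, 0.16 for Cela2a and 0.17 for Prss2. Chow C limits depth, with the lowest total.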

Other observations

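Amy1, the amylase gene of salivary gland and liver, was chosen after its values were seen. In mesentery on chow it was ordered as Amy2a5 was, lowest in replicate C. It had 569, 528 and 371 normalized counts in epididymal fat on chow and 82.1, 182 and 106 on the high fat diet, where the groups did not overlap, and 214, 96.8 and 26.8 in mesentery on chow and 234, 146 and 102 on the high fat diet. The difference in epididymal fat did not pass (limma log2 change -2.04, SE 0.59, adjusted p 0.206), nor did the difference between tissues (log2 -2.90, adjusted p 0.571).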
